A study of Mus musculus with 26 samples.

Results

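The genes described here are 10 immediate early transcription factors measured in mouse mesenteric arteries: Fos, Fosb, Jun, Junb, Atf3, Egr1, Egr2, Egr3, Nr4a1 and Ier2. They were taken as a list of symbols, with no threshold on their values, and each symbol had 1 entry among the 21031 genes of the deposited normalized table. The study measured poly(A) RNA of these arteries, the vessels that feed the gut, in male mice aged 8 weeks that lacked pannexin 1 or carried 1 changed residue of it. Pannexin 1, the product of Panx1, forms membrane channels that release ATP, and the study asks how its phosphorylation sites differ. Each of 4 mutant groups had its own controls, 26 libraries in 8 groups. The genotypes in the labels are WT (3 libraries) and Panx1 KO (3), Y198F-/- (3) and Y198F+/+ (3), S205A-/- (4) and S205A+/+ (4), and Y308F-/- (3) and Y308F+/+ (3). In each line with a changed residue the labels name the -/- animals as the controls, which leaves the +/+ animals as carriers of the changed residue. The knockout is labelled global. The controls were littermates or wild type, and the strain is not named. The series text gives 3 vascular trees for each line, although S205A has 4 libraries a group.

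Immediate early genes are switched on quickly by signals that reach existing transcription factors, with no need for newly made protein, and most of their transcripts are short-lived. Serum response factor acts at a sequence called the CArG box, and CREB acts at the cAMP response element, or CRE. In arterial muscle these genes are known to respond to stretch, growth factors and contractile agonists. Fos and Fosb proteins pair with Jun or Junb to form the factor AP-1. Atf3 is a stress-induced factor of the same leucine zipper class. Egr1, Egr2 and Egr3 are zinc finger factors, Nr4a1 is an orphan nuclear receptor, and Ier2 is a short nuclear protein.

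The promoters were read to describe what the genes share in sequence. Whether the motifs relate to how the genes varied among libraries was not tested. For each gene the 300 bases before the start of the canonical transcript were searched on both strands (GRCm39, GENCODE vM39). The motifs were the full CRE (TGACGTCA), its 5-base core (TGACG, which also lies inside every full CRE), the CArG box, the AP-1 site (TGANTCA), the EGR site (GCGNGGGCG) and the NBRE, the site of Nr4a1 (AAAGGTCA). The core was present in 8 of the 10 promoters, all but those of Jun and Atf3, against 19.9% of 21756 protein-coding promoters. A CArG box was present in 3 of 10, those of Fosb, Egr2 and Egr3, against 1.70%. A full CRE was present in that of Ier2 alone, against 1.75%, and an EGR site in that of Fosb alone, against 4.71%. No member had an AP-1 site (7.38% of promoters) or an NBRE (1.42%) in this window. Stretches that hold CArG boxes (Egr2 and Fosb) and the full CRE are given first, each 120 bases, 5′ to 3′ along the gene, with CArG boxes and cores on either strand in capitals. The Fos stretch, with 2 cores, was added after its sequence was seen.
Egr2, chr10:67373572-67373691, plus strand: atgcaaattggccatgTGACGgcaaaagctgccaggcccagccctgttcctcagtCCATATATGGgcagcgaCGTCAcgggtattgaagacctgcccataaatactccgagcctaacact
Fosb, chr7:19044123-19044242, minus strand: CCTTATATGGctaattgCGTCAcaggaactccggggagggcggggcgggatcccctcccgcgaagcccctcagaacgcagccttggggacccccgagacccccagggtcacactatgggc
Ier2, chr8:85389484-85389603, minus strand: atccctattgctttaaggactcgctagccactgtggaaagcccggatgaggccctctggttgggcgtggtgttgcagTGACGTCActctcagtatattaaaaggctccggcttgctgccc
Fos, chr12:85520535-85520654, plus strand: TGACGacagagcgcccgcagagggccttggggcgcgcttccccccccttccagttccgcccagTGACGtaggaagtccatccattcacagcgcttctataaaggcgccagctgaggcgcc

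In the promoter of Egr2 the box begins 65 bases before the start and lies between 2 cores. A match is a description of letters, not a measured binding site, and sites farther from the start were not searched.

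**Figure D1:**
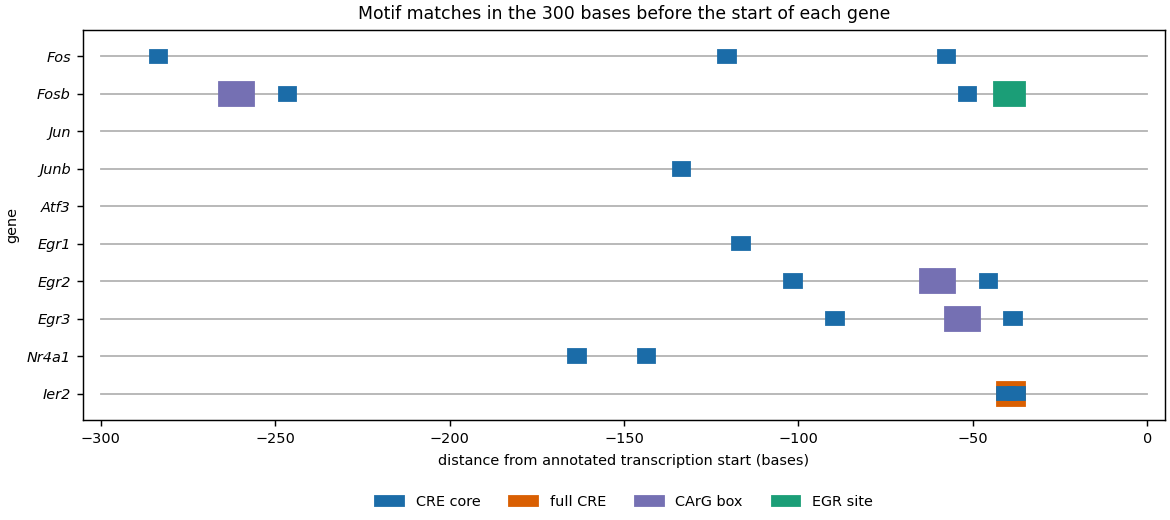
Motif matches on either strand in the 300 bases before the canonical transcript start of each of the 10 genes; the horizontal axis is the distance from that start in bases, and each box spans one match. Egr2 and Egr3 each have a CArG box between 2 CRE cores, Ier2 has the only full CRE, and Jun and Atf3 have no match.

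The genes lie on 9 chromosomes of GRCm39, and each is protein-coding. Fos spans 12:85520658-85524047 and Fosb 7:19036621-19043976. Jun spans 4:94937271-94940459, Junb 8:85701113-85705359 and Atf3 1:190902493-190950241. Egr1 spans 18:34992876-34998049, Egr2 10:67371305-67378018 and Egr3 14:70314350-70320063. Nr4a1 spans 15:101151980-101172681 and Ier2 8:85387960-85389483. Jun, Junb, Atf3, Egr2 and Nr4a1 overlap other annotated genes (Junb overlaps Prdx2). Whether reads were counted by strand is not stated, so the counts of these 5 genes are less certain.

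Library totals ran from 14895969 to 23617902 counts, and no pair of replicates agreed within counting noise. Panx1 itself had 3.38 to 4.96 CPM (counts scaled to a common library size) in wild type and 0.582 to 1.36 CPM in the knockout. Smooth muscle markers summed to between 20544 and 42878 CPM and endothelial markers to between 1116 and 9388 CPM, so both were present in each library. Fibroblast markers summed to between 1486 and 6106 CPM and adipocyte markers to between 52.8 and 2879 CPM. S205A control 1 had the lowest endothelial sum. In 9 libraries the library name holds a number that starts with 22 (the 22 series): all 3 carrying Y198F, mutants 2, 3 and 4 of the S205A line and its controls 1, 2 and 3. What that number stands for is not stated, and over all genes 11.7% differed by series at an edgeR adjusted p under 0.05. Among the 10 members 0 did, with edgeR adjusted p-values from 0.469 to 0.998, and 0 had an unadjusted p under 0.05, against 25.0% of genes.

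All 10 genes were detected in every library and passed the filter on low counts in every comparison. Per kilobase of exon, Jun was the most abundant, with a median level of 60.8 CPM per kb over the 26 libraries, and it exceeded the next gene in 24 of them. Egr1, Fos, Junb and Ier2 followed with median levels of 35.4, 35.0, 33.9 and 33.9 CPM per kb. Neighbours among those 4 changed places from library to library: Egr1 exceeded Fos in 11 of 26, Fos exceeded Junb in 15 and Junb exceeded Ier2 in 18. Nr4a1 had a median level of 10.6 CPM per kb over all its exons, and of 45.5 by the length of its canonical transcript alone, which would place it after Jun. Atf3, Egr3, Fosb and Egr2 had median levels of 6.57, 3.40, 0.888 and 0.711 CPM per kb. Egr2 was the member with the fewest reads, 9 to 109 counts per library.

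Fos and Fosb spanned the widest range. The highest library had 161 times the Fos level of the lowest and 186 times the Fosb level, in CPM. The same ratio was 16.3 for Nr4a1, 14.6 for Atf3, 14.2 for Egr2, 12.8 for Egr1, 8.40 for Junb, 6.83 for Egr3, 6.12 for Jun and 5.46 for Ier2. S205A library 2 held the highest level of 7 members (Fos, Fosb, Jun, Junb, Egr1, Nr4a1 and Ier2). S205A library 3 was among the 4 highest libraries for 8 members. Wild-type library 3 held the lowest level of 4 members, Fos, Fosb, Jun and Nr4a1. High libraries also occurred among controls: Y198F control 1 was among the 4 highest for 5 members.

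**Figure D2:**
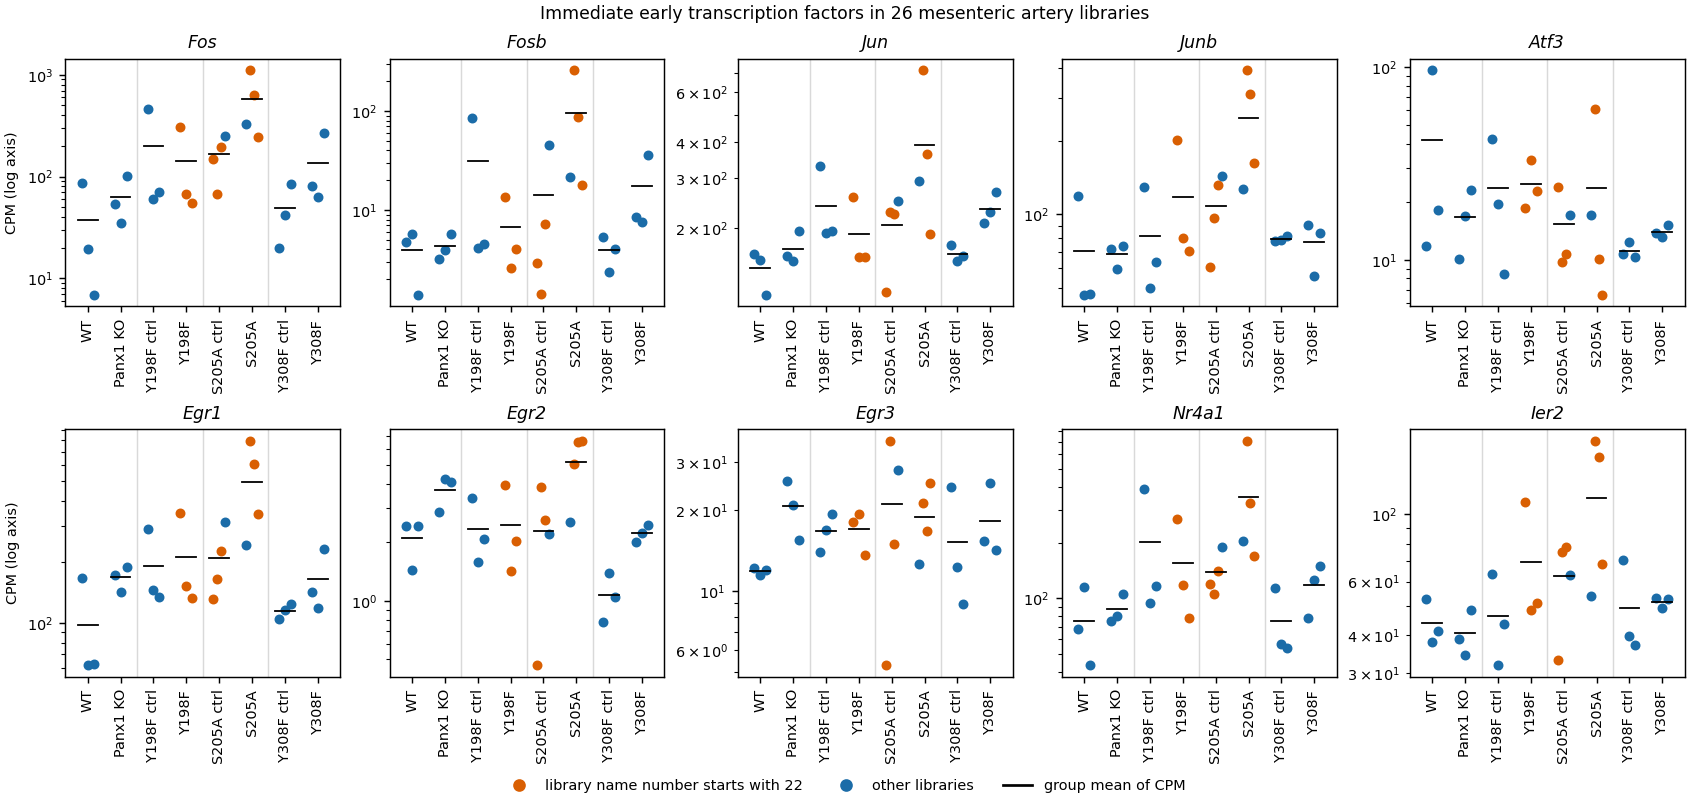
Level of each of the 10 genes in every library, in CPM on a log axis whose range differs between panels, with libraries arranged by group. Points are libraries, coloured by whether the library name number starts with 22, and bars are group means; S205A library 2 is the highest point in 7 panels, and single control libraries stand as high as mutant ones for Fos, Fosb and Nr4a1.

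Much of this spread lay between libraries of one group. After centring on group and series (24 libraries with a partner, 16 degrees of freedom), the pooled SD of log2 CPM was 1.40 for Fosb, 1.25 for Fos, 0.99 for Atf3 and 0.73 for Nr4a1. For the others it lay between 0.46 for Jun and 0.65 for Egr2. The median over members was 0.63, and over all 18715 genes tested it was 0.33. Among the 1556 genes within 0.5 log2 units of the level of Fos, 0.0643% had a larger SD than Fos. The same share was 0.646% for Fosb, 0.705% for Nr4a1 and 0.985% for Atf3, and 24.4% for Egr2, which has few reads.

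No member passed an edgeR adjusted p of 0.05 in any of the 4 comparisons, 0 of 40 tests. As a description, 7 of 10 members had a log2 fold change above 0 in the knockout, 6 in Y198F, 9 in S205A and 9 in Y308F. The medians over the members were 0.24, 0.04, 1.19 and 0.53, where the medians over all genes lay between -0.03 and 0.01. As each library was left out, the Y198F count ran from 2 to 8 and its median from -0.43 to 0.60, and the knockout count ran from 5 to 9 and its median from 0.033 to 0.50. In S205A they ran from 8 to 10 and from 0.82 to 1.42, and in Y308F from 8 to 9 and from 0.43 to 0.70. In tissue RNA, a change in the cells that carry a transcript and a change in the RNA per cell cannot be told apart. Nothing in the labels says more about the replicates than that they come from vascular trees, so p-values measure the spread between these samples.

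**Figure D3:**
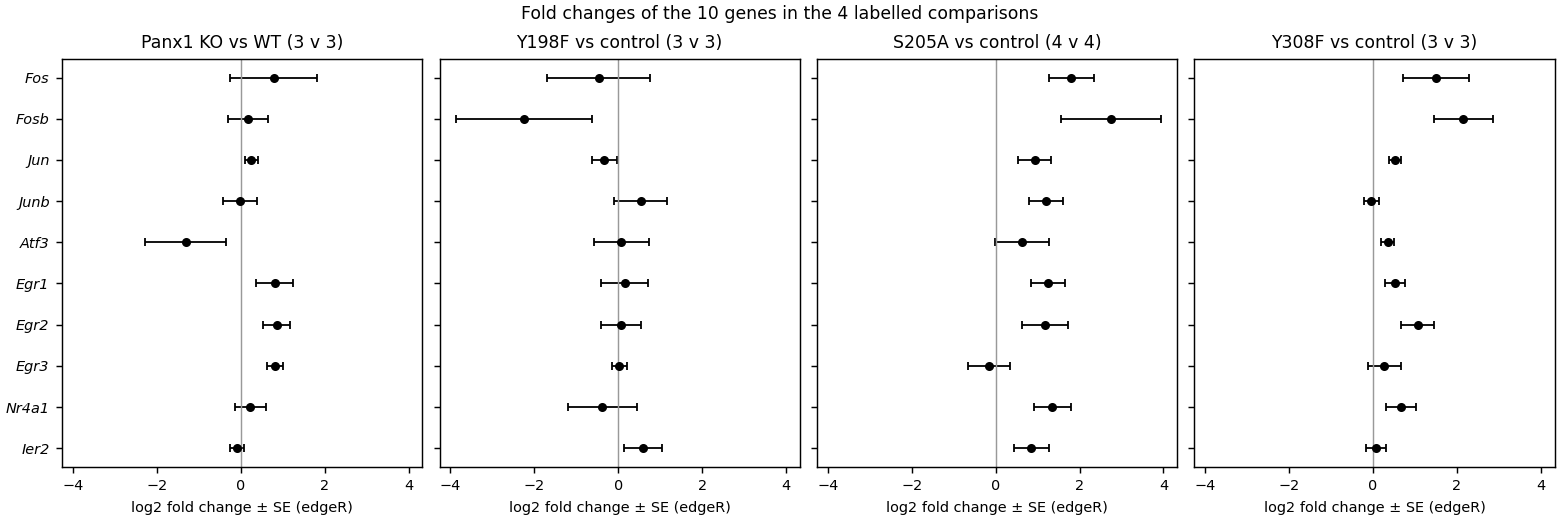
Log2 fold change of each gene in each of the 4 comparisons, from edgeR's quasi-likelihood test; points are estimates and bars are 1 standard error on either side. In S205A 9 of 10 estimates are above 0, and over the 4 panels the widest bars belong to Fosb and Fos in Y198F.

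The S205A mutation replaces a serine of the channel, and its comparison asks what that residue contributes. Fos, Fosb, Egr1, Nr4a1, Junb and Jun had higher means in the S205A libraries than in their controls, by 0.93 to 2.75 on the log2 scale, yet no member passed the adjusted threshold and no member's groups were free of overlap. Fos levels were 149, 67.2, 197 and 250 CPM in controls 1 to 4 and 330, 1106, 635 and 243 CPM in S205A libraries 1 to 4. S205A libraries 1 to 3 lay above every control, and S205A library 4 lay just below control 4. The log2 fold change was 1.80 ± 0.532 (SE) with an edgeR adjusted p of 1.00. An exact permutation test, two-sided, gave p = 0.0571, where 4 against 4 libraries allow 0.029 at the smallest. Fosb, the partner with the fewest reads of the AP-1 group, had 2.90, 1.41, 7.27 and 45.7 CPM in the controls and 21.5, 258, 87.6 and 17.98 CPM in the mutants. Control 4, which is outside the 22 series, exceeded S205A libraries 1 and 4. Its log2 fold change was 2.75 (SE 1.19), 4.64 without control 4 and 1.56 without S205A library 2.

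The differences of the Jun partners were smaller. Jun had 119, 229, 224 and 250 CPM in the S205A controls and 293, 716, 366 and 191 CPM in the mutants. Junb had 60.9, 96.6, 132 and 144 CPM in the controls and 127, 392, 313 and 163 CPM in the mutants. In both genes S205A libraries 2 and 3 were the highest 2 of the 8, and the remaining libraries overlapped. The log2 fold changes were 0.93 (SE 0.396) for Jun and 1.20 (SE 0.395) for Junb. Atf3 had 9.6997 to 23.7 CPM in the controls and 17.1, 60.7, 10.1 and 6.57 CPM in the mutants. Its log2 fold change was 0.62 (SE 0.648), and -0.44 without S205A library 2.

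Egr1 levels were 132, 165, 226 and 316 CPM in the S205A controls and 243, 793, 611 and 343 CPM in the mutants, which is 1.25 ± 0.402 (SE) on the log2 scale (adjusted p 1.00 by edgeR, exact permutation p 0.0571). Nr4a1 had 119, 105, 140 and 190 CPM in the controls and 205.2, 710, 327 and 169 CPM in the mutants, which is 1.35 ± 0.436 (SE) on the log2 scale (adjusted p 1.00 by edgeR, exact permutation p 0.0571). In each of these genes 3 mutant libraries lay above every control and 1 lay below the highest control, S205A library 1 for Egr1 and library 4 for Nr4a1. Without S205A library 2 the log2 difference of Nr4a1 was 0.75. Egr2 had 0.466, 3.82, 2.61 and 2.21 CPM in the controls and 2.54, 5.04, 6.51 and 6.64 CPM in the mutants, a log2 fold change of 1.19 (SE 0.548). Egr3 stood apart from these: it had 5.28, 36.1, 14.9 and 28.0 CPM in the controls and 12.5, 21.1, 16.6 and 25.1 CPM in the mutants. The mutant range lay inside the control range, and the log2 fold change was -0.16 (SE 0.498). Ier2 had 33.3 to 78.0 CPM in the controls and 54.0 to 174 CPM in the mutants, with a log2 fold change of 0.85 (SE 0.411).

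At an edgeR unadjusted p under 0.05, 6 of the 10 members were higher and 0 lower in S205A, where 2.87% of all 15709 genes were below that p in either direction. At an adjusted p, 0% of all genes were called, so the members shared that with the rest of the transcriptome. DESeq2 called 0 members as well, with 8 at an unadjusted p under 0.05 against 3.4% of genes and the smallest adjusted p, 0.0978, for Nr4a1, while it called 0.196% of all genes. Groups did not overlap for 0 members, against 1.85% of genes. Within the 22 series (3 controls and 3 mutants), 10 of 10 members had a log2 fold change above 0, with a median of 1.498. There 6 members (Fos, Fosb, Junb, Egr1, Egr2 and Nr4a1) were higher in every mutant than in every control, against 4.43% of genes in that direction and 8.71% in either, and 0 passed the edgeR adjusted p of 0.05, with 5 at an unadjusted p under 0.05 against 3.41% of genes. In that subset the log2 fold change was 2.27 (SE 0.640) for Fos, 4.97 (SE 1.14) for Fosb and 1.75 (SE 0.340) for Egr1.

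Of 12 lists of cell type markers and heat shock genes, fibroblast markers alone had sums that did not overlap between the S205A groups. All 7 of 7 markers on that list were detected, and their summed level was 1486 to 2023 CPM in the controls and 2133 to 6106 CPM in the mutants, without overlap. In S205A libraries 1 to 4 the sums were 4513, 2133, 6106 and 3738 CPM. The part of these markers in the differences of the members was not tested. In the authors' deposited table, the 10 members had log2 fold changes from -0.17 (Egr3) to 2.74 (Fosb) in this comparison, and the smallest adjusted p was 0.146, for Jun.

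The Y308F mutation replaces a tyrosine of the channel. Fosb, Jun, Atf3 and Egr2 were higher in every Y308F library than in every control, by 0.35 to 2.15 on the log2 scale, and no member passed the adjusted threshold. Groups that do not overlap in that direction were found in 4.81% of all genes, and in either direction in 10.4%. Fosb had 5.39, 2.37 and 4.02 CPM in the controls and 8.55, 7.64 and 36.1 CPM in the mutants. Jun had 175, 154 and 160 CPM in the controls and 208, 228 and 268 CPM in the mutants. The gap between the groups was narrow for Fosb, where Y308F library 3 stood far above the other 2, and wider for Jun relative to its spread.

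The log2 fold changes were 2.15 (SE 0.694) for Fosb and 0.53 (SE 0.141) for Jun, both with an edgeR adjusted p of 0.940. Without Y308F library 3 that of Fosb was 1.06. Egr2 had 0.783, 1.39 and 1.05 CPM in the controls and 1.99, 2.24 and 2.44 CPM in the mutants, a log2 fold change of 1.06 (SE 0.391). Atf3 had 10.7, 12.4 and 10.3 CPM in the controls and 13.8, 13.2 and 15.1 CPM in the mutants, a log2 fold change of 0.35 (SE 0.160). The exact two-sided permutation p of each of these 4 genes was 0.1, the smallest that 3 against 3 libraries can give. Fos levels were 19.8, 41.8 and 84.4 CPM in the controls and 80.8, 63.7 and 266 CPM in the mutants. Y308F library 3 stood above the rest, while library 1 and library 2 lay below control 3. Its log2 fold change of 1.505 (SE 0.793) was 0.60 without Y308F library 3 and 2.17 without control 3.

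The other members of the Y308F comparison overlapped. Egr1 had 104 to 124 CPM in the controls and 119 to 230 CPM in the mutants, a log2 fold change of 0.53 (SE 0.234), and 0.21 without Y308F library 3. Nr4a1 had 54.0 to 114 CPM in the controls and 78.5 to 149 CPM in the mutants, with a log2 fold change of 0.66 (SE 0.355). Junb, Egr3 and Ier2 had log2 fold changes of -0.04, 0.27 and 0.08, each smaller than its standard error. In all, edgeR gave 3 members (Fosb, Jun and Egr2) an unadjusted p under 0.05 against 4.4% of genes, and 0 members and 0% of genes an adjusted p under 0.05. When all 8 groups shared one edgeR fit, 0 members and 3.75% of genes had an unadjusted p under 0.05. DESeq2 also called 0 members and 0% of genes, with 5 members and 2.3% of genes at an unadjusted p under 0.05. Without a filter on low counts edgeR called 0 members and 0.0238% of genes, with 3 members and 4.29% of genes at an unadjusted p under 0.05. The authors' deposited table gives each member an adjusted p of 1.00 here. Of the 10 heat shock genes, 0 were called by edgeR in Y308F and 4 were higher at an unadjusted p under 0.05, with a median log2 fold change of 0.24 and 8 of 10 above 0. Their summed levels overlapped, at 1376 to 1893 CPM in the controls and 1663 to 2136 CPM in the mutants, and their part in the members' values was not tested.

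The knockout comparison asks what follows from loss of the channel. The zinc finger factors Egr2 and Egr3 were higher in every knockout library than in every wild-type library. Egr3 had 12.2, 11.4 and 11.9 CPM in wild type and 25.6, 20.8 and 15.4 CPM in the knockout. Egr2 had 2.43, 1.44 and 2.41 CPM in wild type and 2.86, 4.24 and 4.07 CPM in the knockout. The wild-type values of Egr3 were close together, and its mutant values spread upward from them. Groups that do not overlap with the mutant higher made up 8.18% of all genes, and in either direction 17.8%. The difference of Egr3 was 0.82 ± 0.187 (SE) on the log2 scale (adjusted p 0.301 by edgeR, exact permutation p 0.1). For Egr2 it was 0.85 ± 0.333 (SE; adjusted p 0.408 by edgeR, exact permutation p 0.1).

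The call on Egr3 depended on the tool. DESeq2 gave it an adjusted p of 0.0459 and edgeR without a filter on low counts gave 0.00135, where those settings called 0.671% and 0.821% of all genes, while the edgeR test with the filter called 0.0309% of genes and no member. At an edgeR unadjusted p under 0.05 there were 2 members, Egr2 and Egr3, against 11.2% of genes, and 0 members against 7.22% when all 8 groups shared one edgeR fit. The count of members was 5 without wild-type library 1, where 1791 of 16799 genes were below that p. It was 1 without knockout library 2 or 3, where 1148 of 16774 and 1120 of 16738 genes were. Of the same 12 lists, heat shock genes alone had sums that did not overlap between these groups. The 10 of 10 heat shock genes detected summed to 1816 to 3483 CPM in wild type and 1484 to 1664 CPM in the knockout. Their part in the result was not tested. The authors' deposited table gives Egr3 0.81 on the log2 scale and an adjusted p of 0.615.

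The AP-1 genes showed no separation between knockout and wild type. Fos levels were 86.0, 19.5 and 6.88 CPM in wild type and 54.0, 34.7 and 101 CPM in the knockout. The wild-type libraries spread 12.5-fold, and the knockout libraries lay within and just above their range. The log2 fold change of 0.78 (SE 1.04) ran from 0.26 to 2.28 as each library was left out, the highest without wild-type library 1. Atf3 had 11.8, 96.2 and 18.2 CPM in wild type and 10.1, 17.0 and 23.02 CPM in the knockout. Its log2 fold change of -1.31 (SE 0.966) rested on wild-type library 2 and was 0.18 without it. Egr1 had 167, 61.8 and 62.4 CPM in wild type and 173, 142 and 188 CPM in the knockout. A single wild-type library reached the knockout levels, and the difference was 0.81 ± 0.441 (SE) on the log2 scale (adjusted p 0.571 by edgeR), or 1.45 without wild-type library 1. Fosb, Jun, Junb, Nr4a1 and Ier2 had log2 fold changes between -0.10 and 0.25.

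The Y198F mutation replaces another tyrosine. Its 3 mutant libraries are in the 22 series and its 3 labelled control libraries are not, so series and mutation cannot be told apart. Fos levels were 462, 60.2 and 71.2 CPM in the controls and 306, 68.2 and 55.6 CPM in the mutants. Each group held 1 high and 2 low libraries, and the groups overlapped throughout. The log2 fold change was -0.47 (SE 1.23), 1.12 without Y198F control 1 and -1.68 without Y198F library 1. Fosb had 85.9, 4.11 and 4.57 CPM in the controls and 13.4, 2.60 and 3.99 CPM in the mutants. Its log2 fold change was -2.25 (SE 1.62), 0.61 without the same control and -3.26 without the same mutant library.

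Nr4a1 followed the same libraries, with 391, 94.4 and 117 CPM in the Y198F controls and 268, 118 and 78.5 CPM in the mutants. Its log2 fold change was -0.38 (SE 0.825), 0.55 without Y198F control 1 and -1.04 without Y198F library 1. Junb had 49.8 to 130 CPM in the controls and 70.7 to 203 CPM in the mutants, and Ier2 had 31.9 to 63.6 CPM and 48.6 to 109 CPM. Their log2 fold changes were 0.53 (SE 0.631) and 0.58 (SE 0.456), and that of Junb was -0.12 without Y198F library 1. Jun had -0.33 (SE 0.299), and Atf3, Egr1, Egr2 and Egr3 lay between 0.02 and 0.15, with Atf3 at 0.82 without Y198F control 1. As each library was left out, Jun ran from -0.60 to -0.025 and Ier2 from 0.092 to 0.88. By edgeR 0 members were called and 0 had an unadjusted p under 0.05, while 15.0% of all genes were called and 29.1% had an unadjusted p under 0.05. DESeq2 also called 0 of the 9 members for which it gave an adjusted p and 13.2% of genes, with 0 members and 24.9% of genes at an unadjusted p under 0.05. With the replicate number as a block, edgeR called 2 members, Junb and Ier2 (smaller adjusted p 0.0325), and 1760 of 16050 genes. Groups did not overlap for 0 members, against 32.4% of genes.

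Against the 3 S205A controls of the 22 series, which are another line, the Y198F libraries gave log2 fold changes of 0.06 (SE 0.762) for Fos, 0.79 (SE 0.803) for Fosb and 0.35 (SE 0.458) for Nr4a1, and edgeR called 0 members and 0% of genes. The values of the authors' deposited table for Y198F were recomputed to within 0.00016 on the log2 scale against the S205A controls and not against the labelled ones. There the members had log2 fold changes from -1.12 (Fosb) to 0.68 (Atf3), with adjusted p-values from 0.904 to 0.999. Fibroblast markers summed to 3084 to 4022 CPM in the labelled controls and 1992 to 2994 CPM in the Y198F libraries, and Schwann and neuronal markers to 78.7 to 147 and 64.3 to 76.8 CPM. Neither overlapped. All 7 fibroblast markers were detected in both groups, 1 of the 6 Schwann and neuronal markers was at 0 in every library of each group, and their part in the members' values was not tested.

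The 4 comparisons were also tested against each other, as 6 differences between pairs. The 3 that involve Y198F use its labelled controls, so they hold the library series as well as the mutation. By edgeR 0 members passed an adjusted p of 0.05 in any of them. At an unadjusted p under 0.05, Egr3 differed between knockout and Y198F by 0.80 ± 0.268 (SE; adjusted p 0.0674 by edgeR), where 26.4% of genes were below that p and 11.6% were called. Fosb and Jun differed between Y198F and S205A by -4.98 ± 2.07 and -1.26 ± 0.572 (adjusted p 0.316 and 0.345 by edgeR), where 14.3% of genes were below the unadjusted p and 0% were called. The same 2 genes differed between Y198F and Y308F by -4.40 ± 1.86 and -0.86 ± 0.323 (adjusted p 0.210 and 0.132 by edgeR), where 22.3% were below it and 5.7% were called. The Y198F value of Fosb in both was -2.25, which was 0.61 without Y198F control 1 and 0.79 against the S205A controls of the 22 series. Junb differed between S205A and Y308F by 1.21 ± 0.520 (adjusted p 1.00 by edgeR), where 3.49% were below it and 0% were called. Between the knockout and S205A, and between the knockout and Y308F, edgeR gave 0 members an unadjusted p under 0.05, where 4.16% and 3.1% of genes were below it and 0.00562% and 0.0116% were called.

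Among libraries of one group the members varied together. Over 45 pairs of members, 18 had a Benjamini-Hochberg adjusted permutation p under 0.05, each with a positive Pearson r of log2 CPM centred on group and series. All 18 lay among Fos, Fosb, Jun, Junb, Egr1, Nr4a1 and Ier2. The share of pairs past this threshold was not computed for other genes, so the count is not shown to be particular to the members. The median r over the 45 pairs was 0.54, and it was 0.65 within the 22 series and 0.49 in the other libraries. Junb and Egr1 had r = 0.945 and rho = 0.917 over 24 libraries (adjusted permutation p 0.00146 and 0.00285). Without the 2 libraries farthest from the median of Junb r was 0.918, and it was 0.990 in the 22 series and 0.909 outside it.

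Fos and Egr1 had r = 0.896 and rho = 0.837 (adjusted permutation p 0.00146 and 0.00315), and r = 0.852 without the 2 libraries farthest in Fos. Their r was 0.895 in the 22 series and 0.915 outside it. Fosb and Nr4a1 had r = 0.883 and rho = 0.876 (adjusted permutation p 0.00146 and 0.00225), and r = 0.827 without the 2 libraries farthest in Fosb, with 0.882 in the 22 series and 0.884 outside it. Jun and Ier2 had r = 0.845 and rho = 0.823 (adjusted permutation p 0.00202 and 0.00315), and r = 0.844 without the 2 libraries farthest in Jun, with 0.909 in the 22 series and 0.677 outside it. Each of these 4 relations kept its sign in both sets of libraries.

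Atf3, Egr2 and Egr3 had 0 pairs past the threshold. Egr3 went the other way from Fos, with r = -0.39 and rho = -0.44 (adjusted permutation p 0.0580 and 0.0816), which did not pass. It was -0.43 without the 2 libraries farthest in Fos, -0.29 in the 22 series and -0.55 outside it. Egr2 and Egr3 had r = 0.50 and rho = 0.11 (adjusted permutation p 0.534 and 0.797). That relation rested on S205A controls 1 and 2, since r was -0.26 without them, and it was 0.82 in the 22 series and -0.42 outside it. S205A control 1 had the lowest Egr2 and Egr3 of the 26 libraries, and S205A control 2 the highest Egr3.

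**Figure D4:**
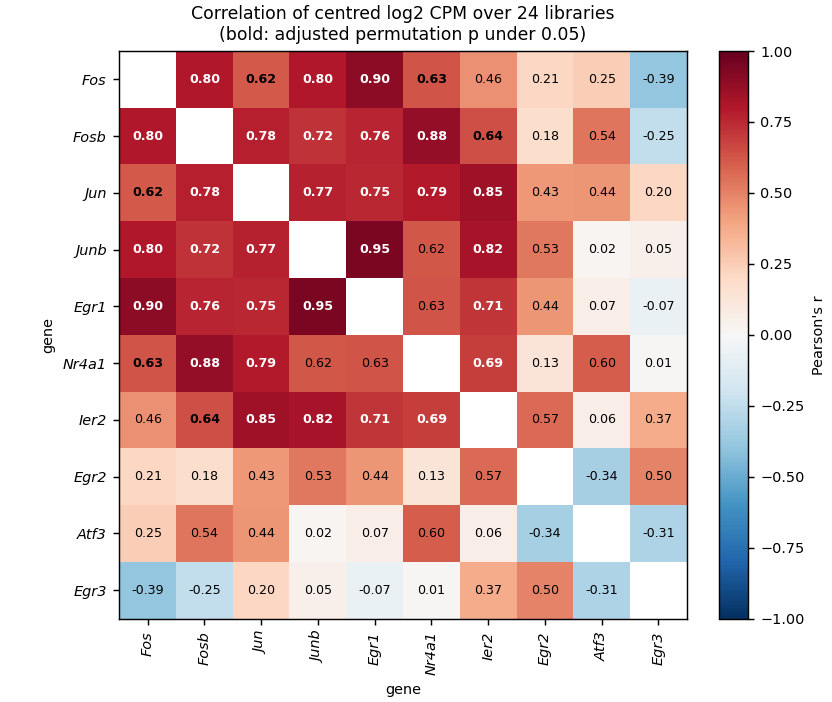
Pearson r between each pair of the 10 genes over 24 libraries, from log2 CPM centred on group and series; both axes list genes, and bold marks an adjusted permutation p under 0.05. The 7 genes at the upper left, from Fos to Ier2, hold all 18 bold pairs, and Egr2, Atf3 and Egr3 hold none.

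**Figure D5:**
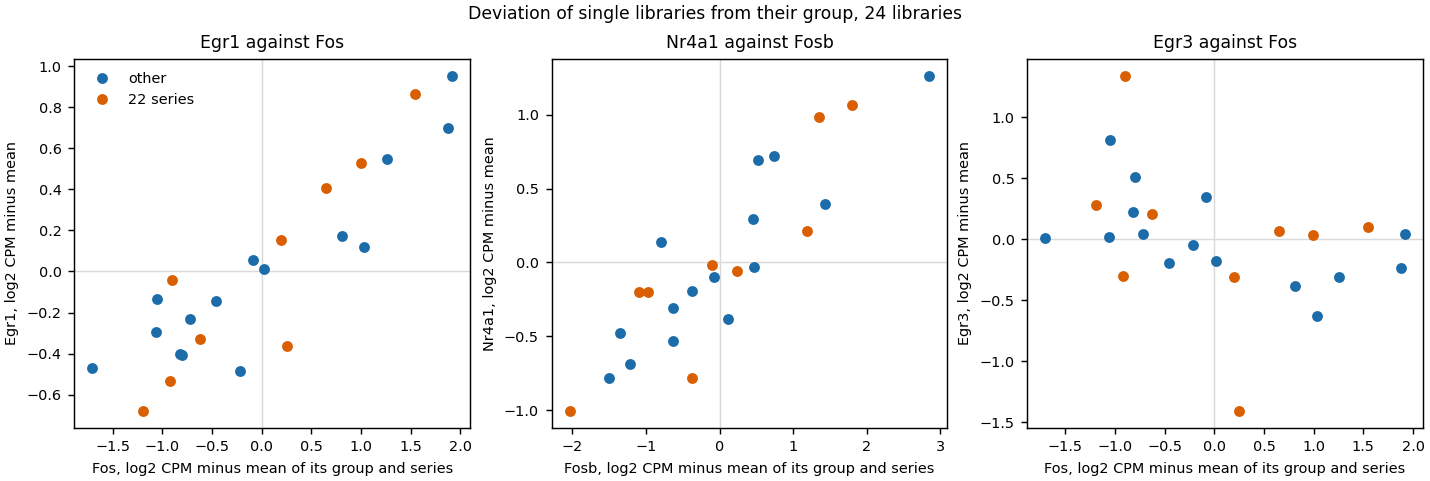
Deviation of each of 24 libraries from the mean of its group and series, in log2 CPM, for Egr1 against Fos, Nr4a1 against Fosb and Egr3 against Fos; points are libraries, coloured by series. The first 2 panels rise with r = 0.896 and r = 0.883, and the third has r = -0.39.

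Fos was also set against the summed levels of 12 lists, 11 of cell type markers and 1 of heat shock genes, after the same centring. None passed after adjustment over the 12. The widest were lymphoid markers, with r = 0.53 and rho = 0.45 (adjusted permutation p 0.244 and 0.360), and erythroid markers, with r = -0.54 and rho = -0.56 (adjusted permutation p 0.373 and 0.347). Without the 2 libraries farthest in Fos these were 0.47 and -0.59. Lymphoid sums ran from 0.622 to 24.8 CPM, low beside those of muscle.

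Of 12899 other genes with a mean log2 CPM of at least 1, those whose variation was most like the mean of the 10 members were Btg2, an antiproliferative immediate early gene (r = 0.887), and Dusp1, a phosphatase that inactivates MAP kinases (r = 0.851). Also among them were the mitochondrial transfer RNA gene mt-Ty (0.851) and D830050J10Rik (0.778). The lowest were Amn1 (-0.845), 6720427I07Rik (-0.813) and Gm19391 (-0.811). These values are descriptions over 24 libraries, ranked from many genes, with no test. Of the 78 listed related genes that were ranked, 52 had r above 0 and 26 below, with a median of 0.12, where all 12899 had a median of -0.0094. The feedback genes had r above 0 in 20 of 24, with a median of 0.28, from Dusp1 down to Gadd45b, a stress-induced gene (-0.50, rank 12413). The other immediate early factors had r above 0 in 13 of 20, with a median of 0.10, from Btg2 down to the clock gene Per1 (-0.42). The AP-1 and leucine zipper partners had r above 0 in 7 of 9, with a median of 0.18, down to Mafg (-0.45). The upstream regulators had it in 8 of 17 and the heat shock genes in 4 of 10, with medians of -0.026 and -0.25. Btg2 levels ran from 61.5 to 308.2 CPM and Dusp1 levels from 107 to 842 CPM over the 26 libraries.

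Related genes were read from lists. Of 9 other AP-1 and leucine zipper partners tested, 0 passed the adjusted p of 0.05 in the knockout, S205A or Y308F. The same was true of 20 other immediate early transcription factors, of 26 or 27 feedback and other immediate early genes, and of 17 upstream regulators of serum response factor and CREB. Of the feedback genes, which include Dusp1 and Zfp36, edgeR gave an unadjusted p under 0.05 to 5 in S205A and 4 in Y308F, all higher, and to 2 higher and 4 lower in the knockout. Over all genes the shares at that p were 2.87%, 4.4% and 11.2%. Their median log2 fold change was 0.19 in S205A, with 20 of 26 above 0, and 0.17 in Y308F, with 21 of 27 above 0. It was -0.11 in the knockout and 0.01 in Y198F. At that p the AP-1 and leucine zipper partners had 0 higher and 2 lower in the knockout, 0 in S205A and 3 higher of 9 in Y308F. The other immediate early factors had 1 higher and 3 lower in the knockout, 2 higher in S205A and 1 higher in Y308F. The upstream regulators had 2 higher and 1 lower, 0, and 1 higher. In Y198F, where series and mutation cannot be told apart, 6 of 20 other immediate early factors rose and 1 fell. Bhlhe40 rose by 0.96 (SE 0.135), Ier3 by 0.87 (SE 0.124), Cebpb by 0.86 (SE 0.141) and Cebpd by 0.88 (SE 0.168) on the log2 scale, and Nfil3, a circadian-regulated repressor, fell by 1.56 (SE 0.300). Among upstream regulators Srf, which encodes serum response factor, rose by 0.42 (SE 0.124, edgeR adjusted p 0.0417), Mapk3 by 0.49 and Mrtfa by 0.56, and Rps6ka3 fell by 0.56. Mafg and Nab2, a corepressor of EGR factors, rose by 0.39 and 0.44, and Zfp36l1 fell by 0.55. Of the 10 heat shock genes 1 was called, Hspb1, which encodes a small heat shock protein and rose by 0.85 (SE 0.142). Counts over all genes in the same comparison were 15.0%, and against the S205A controls of the 22 series 0%.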

How the data were processed

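Per the series text, the authors mapped paired 150-base reads to GRCm39 with STAR 2.7.9a, counted them per gene with featureCounts (Rsubread 2.20.0) and tested them with DESeq2 1.46.0. The annotation release, strand setting and filters are not given in the sources used here. The deposited counts are whole reads per gene. The deposited normalized signal equals these counts divided by 1 DESeq2 size factor per library, for genes with a total above 50. The authors' deposited tables of comparisons hold log2 fold changes, a Wald statistic (a score), p-values and adjusted p-values.

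CPM used TMM library sizes, and log2 CPM a prior count of 2. Each comparison was tested on its own groups with edgeR's quasi-likelihood test (edgeR 4.0.16, R 4.3.3) after its filter on low counts, with p-values adjusted over all genes tested. Alternatives were DESeq2 1.42.0, no filter, DESeq2 size factors, a series term, other controls, a replicate block and leaving out each library. Correlations used 100000 permutations within group and series (numpy 2.4.6, scipy 1.17.1). In simulated counts, drawn with a single dispersion for all genes, edgeR recovered 100% of 4-fold changes in each comparison. The simulation did not use the spread of the members, so it cannot say which changes of theirs would be called. The pooled SD of log2 CPM was 1.25 for Fos and 1.40 for Fosb, against a median of 0.33 over all genes tested. Of 100 simulated 2-fold changes it recovered 60% for the knockout, 65% for Y198F, 75% for S205A and 54% for Y308F, with 3, 6, 7 and 13 false calls among the unchanged genes.

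All 10 members are named. Listed genes are named where they passed, up to 5 per list by smallest p, with the 5 most and 3 least alike genes. One of those genes and one promoter stretch are not reported here. The members and lists were chosen with earlier results of these data known. Counts per library ranged from 9 (Egr2) to 16908 (Fos). The 30 pairs of replicates differed by a chi-square per degree of freedom of 15.0 to 159, so each was counted as 1 sample.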

Additional observations from a re-analysis of the deposited data

Results flagged for a closer look

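Jun in the S205A controls had 1 library far from the other 3. S205A control 1 had 119 CPM, against 224 to 250 CPM in controls 2 to 4, and on the log2 CPM scale its gap to the nearest control was 0.855 of the group's range, above Dixon's 95% critical value for 4 samples. On the CPM scale the same ratio was 0.806, which is below that value, so the result depends on the scale. The one group past it on the CPM scale was Fosb in the same controls, where control 4 had 45.7 CPM against 1.41 to 7.27 CPM (0.868). The 10 members in the 2 groups of 4 gave 20 such checks, of which chance passes about 1 in 20. S205A control 1 also had the lowest Egr2, Egr3 and endothelial marker sum of all 26 libraries. Without that library the log2 fold change of Jun in S205A was 0.74, and without S205A library 2 it was 0.46.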

How the results depend on the processing

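The 0 of 10 members called held in each of the 4 comparisons under every alternative run, except that DESeq2 and the test without a filter each called 1 in the knockout (Egr3, log2 fold changes 0.82 and 0.83) and the replicate block called 2 in Y198F, where it called 1760 of 16050 genes. Over all genes, the deviations of same-numbered libraries had correlations from -0.28 to 0.23. With so few libraries a group this cannot decide whether the numbers pair animals, and the labels do not say. With the replicate block Junb was 0.48 and Ier2 0.53 in Y198F, Junb turned to 0.12 in the knockout and Egr3 to 0.10 in S205A, and 18 genes were called in the knockout. Over all genes the knockout count of 5 was 243 without a filter and 107 with DESeq2. The Y198F count of 2411 was 922 when the 8 groups were fitted together and 0 with a series term or against either set of S205A controls. The count of 0 was 40 with DESeq2 in S205A and 7 without a filter in Y308F, and the series count of 2189 was 902 in the S205A line alone.

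Signs turned in Y198F against the S205A controls of the 22 series (Fos 0.062, Fosb 0.79, Egr3 -0.15, Nr4a1 0.35) and against all S205A controls (Egr3 -0.32, Nr4a1 0.16). They also turned with a series term (Atf3 -0.092, Egr2 -0.55), within the 22 series for S205A (Egr3 0.16), and with DESeq2 size factors for the series difference (Egr1 -0.0027, Egr3 -0.0052). The cause was not tested.

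Leaving out each library in turn gave these ranges where a sign turned. In the knockout they were Fosb -0.24 to 0.53, Junb -0.24 to 0.56, Atf3 -1.76 to 0.18, Nr4a1 -0.054 to 0.66 and Ier2 -0.25 to 0.044. In Y198F they were Fos -1.68 to 1.12, Fosb -3.26 to 0.61, Junb -0.12 to 1.04, Atf3 -0.34 to 0.82, Egr1 -0.42 to 0.59, Egr2 -0.45 to 0.42, Egr3 -0.091 to 0.16 and Nr4a1 -1.04 to 0.55. In S205A they were Atf3 -0.44 to 0.94 and Egr3 -0.49 to 0.22, and in Y308F Junb -0.18 to 0.16, Egr3 -0.022 to 0.80 and Ier2 -0.087 to 0.44. Counts over all genes ranged from 1 to 5 in the knockout, 908 to 2128 in Y198F, 0 to 1 in S205A and 0 to 1 in Y308F. The median r over the 45 pairs was 0.59 with centring on group alone and 0.53 with a prior count of 0.5.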
